A study of Mus musculus with 3 samples.

Results

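Apoh, Apoc3, Ttr and Rbp4 encode secreted plasma proteins whose main source is the hepatocyte, and their RNA was compared here between mouse spleen and a reference RNA. The 4 genes were chosen by name as apolipoproteins and as carriers of retinol and thyroxine, and their probes were all those with one of these symbols in the probe-to-gene table, 6 of the 16273 probes analysed. Spleen total RNA, a purchased preparation, was labelled red with Cyanine-5 on each of 3 two-colour arrays, against UMRR (Universal Mouse Reference RNA), a purchased pool of RNA from mouse cell lines labelled green with Cyanine-3. Both RNAs were amplified in 1 round to cRNA before labelling. The 3 arrays form 1 group. Because the same product was named for each RNA on every array, a p-value here reflects how far 3 arrays of the same 2 RNAs scatter, a spread that may be technical, and the arrays describe no other spleen or animal. The labels used here name no strain, sex or age for the spleen, and no dye swap is labelled, so that dye and RNA source cannot be told apart.

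The deposited value is a signed log ratio per probe and array, with neither base nor numerator stated. Positive values are read here as higher in spleen, which is likely but not certain: red is usually divided by green, and spleen carried the red dye. Most tested genes of the labelled tissue had that sign. All 5 measured genes of the B cell marker list passed the test as positive, as did 7 of 7 for red cells, 4 of 4 for macrophages and 5 of 6 for T cells, where Cd3d was negative. The share positive over all genes was 33.2%. Listed genes without a value on all 3 arrays are outside these counts. Among them, Alas2 of red cells had -0.63 on array 1 only. The macrophage genes Cd68 and C1qa had -0.069 and 1.32 on array 3 only, and Csf1r and Vcam1 had no value. The signs of the tested genes helped to settle the direction and are not independent of it. If the ratio ran the other way, every direction below would turn round. Exact 0 was deposited for 24.2% to 26.8% of probes on an array and was read as no measurement, and 11086 probes (68.1%) had a value on all 3 arrays. The medians of those probes lay between -0.029 and -0.027. Signal over background is unknown for want of intensities, and the number of arrays limits the precision.

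Apolipoproteins coat the lipid particles that carry cholesterol and triglyceride through blood. ApoC-III slows the clearance of triglyceride-rich particles by inhibiting lipoprotein lipase, whereas apolipoprotein H, also known as beta-2-glycoprotein I, binds anionic phospholipids and is the main antigen of antiphospholipid antibodies. Retinol-binding protein, the product of Rbp4, carries retinol from liver stores to other tissues and travels in plasma bound to transthyretin, the product of Ttr, which also carries thyroxine. Their synthesis outside the liver is known too: transthyretin is made in the choroid plexus and in pancreatic islets, and retinol-binding protein in adipose tissue, and the yolk sac makes many plasma proteins before the liver takes over.

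All 4 genes had positive ratios on all 3 arrays. The mean log ratio was highest for Apoh at 2.36, followed by Ttr at 1.90, Apoc3 at 1.60 and Rbp4 at 1.35, and each of these means rests on 1 probe. Each of the 4 passed as positive in limma's test of the ratio against 0 across the 6077 genes measured on all 3 arrays, at a Benjamini-Hochberg adjusted p under 0.05. Over all genes the same test called 33.2% positive and 37.1% negative. Fewer than 5 in 100 genes had a higher mean than each of them: 1.76% of genes lay above Apoh, 2.67% above Ttr, 3.62% above Apoc3 and 4.71% above Rbp4. The quartiles of all gene means were -0.39 and 0.34.

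**Figure D1:**
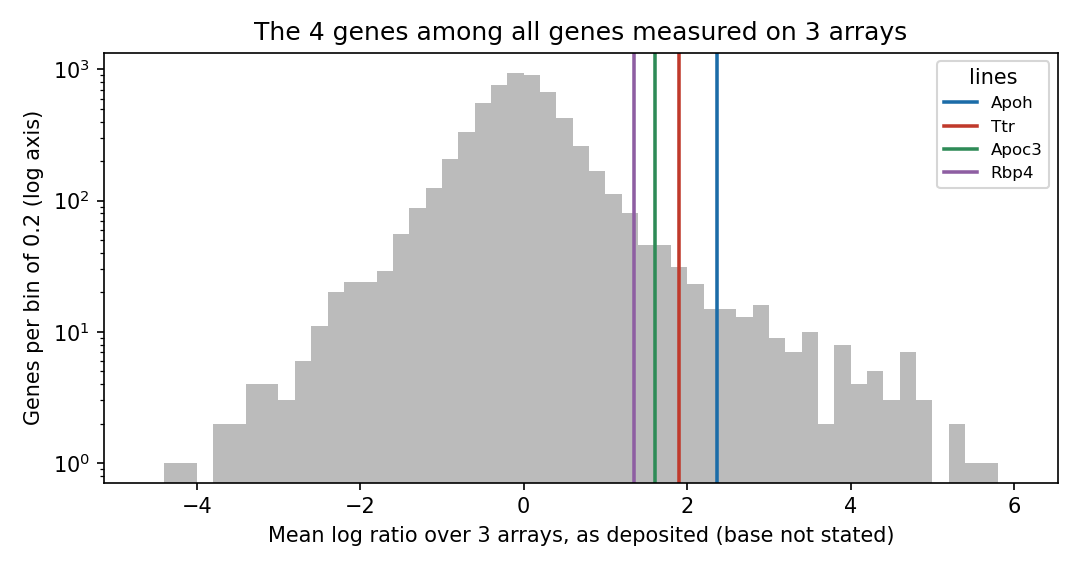
Histogram of the mean log ratio over 3 arrays (horizontal axis, base not stated) for the 6077 genes measured on all arrays, with the number of genes per bin of 0.2 on a log axis. Coloured lines mark Apoh at 2.36, Ttr at 1.90, Apoc3 at 1.60 and Rbp4 at 1.35, all in the right-hand tail.

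Of the 6 probes, 4 were measured on all 3 arrays, 1 for each gene, which is 66.7% against 68.1% of all probes. The second probe of Ttr, probe 12880, was at 0 on every array. The second probe of Rbp4, probe 84, was at 0 on arrays 1 and 2 and had a log ratio of 0.86 on array 3. Neither entered the test.

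**Figure D2:**
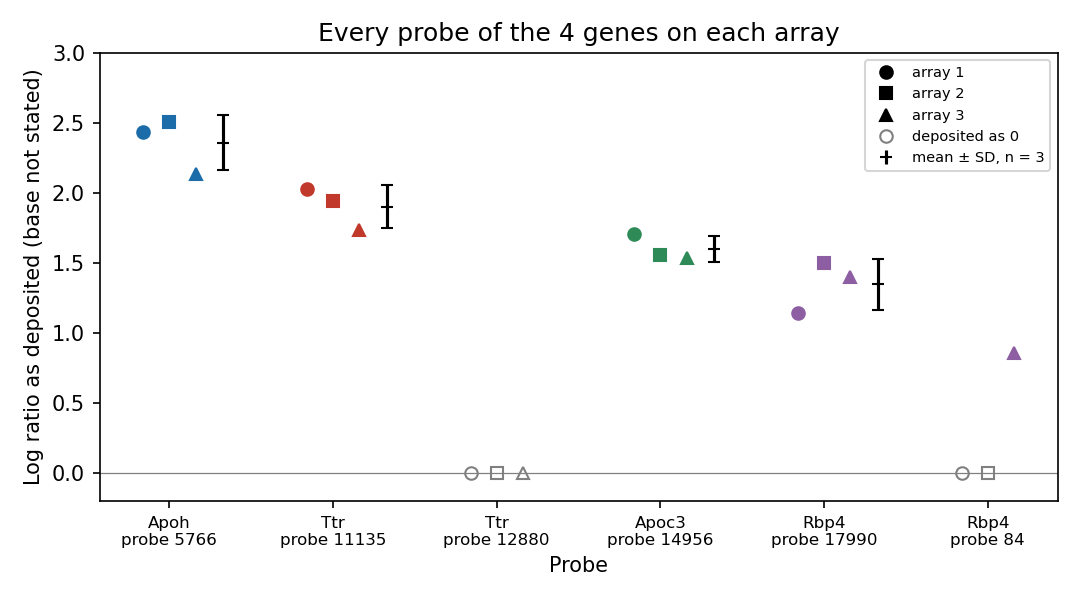
Log ratio (vertical axis, base not stated) of each of the 6 probes on arrays 1, 2 and 3, with open grey symbols where 0 was deposited and, for probes measured on all arrays, the mean ± SD (n = 3). The highest values belong to Apoh and the lowest of the fully measured probes to Rbp4, and the only value of the second Rbp4 probe, 0.86, lies under all 3 of its first probe.

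The apolipoproteins ranked 1 and 3 of the 4 genes. Apoh, read by probe 5766, had log ratios of 2.44, 2.50 and 2.13 on arrays 1, 2 and 3. The value of array 3 was the lowest, and all 3 lay above every value of the other genes' probes. The mean of 2.36 ± 0.20 (SD, n = 3) had a moderated standard error of 0.086 and a limma adjusted p of 7.07e-07. That mean would be a 5.13-fold ratio of spleen over reference if the logs are in base 2, and a 10.6-fold ratio if they are natural logs. The replicate spread of Apoh was among the wider ones, since 18.2% of genes had a larger SD.

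Apoc3, read by probe 14956, had log ratios of 1.71, 1.56 and 1.54 on arrays 1, 2 and 3. It was the most repeatable of the 4, with 60.5% of genes more widely spread. The mean was 1.60 ± 0.092 (SD, n = 3), with a limma adjusted p of 1.35e-06, corresponding to 3.03-fold in base 2 or 4.96-fold in natural logs. Probes with numbers close to that of Apoc3 were also somewhat positive: the median over 10 probe numbers on either side averaged 0.45 over the arrays, and the ratio of Apoc3 was 1.15 after its subtraction (adjusted p = 0.000116). What the neighbouring numbers share on the array was not tested.

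The carriers ranked 2 and 4. Ttr, read by probe 11135, had log ratios of 2.03, 1.94 and 1.73 on arrays 1, 2 and 3, array 3 again being the lowest. The mean was 1.90 ± 0.15 (SD, n = 3), with a limma adjusted p of 1.15e-06, which would be 3.74-fold in base 2 and 6.70-fold in natural logs. The local median around this probe number averaged 0.39, and the ratio after subtraction was 1.51. If the 0 values of the second probe were real measurements, the mean of Ttr over both probes would be 0.95 (limma adjusted p = 0.00569). A probe at 0 on every array shrinks mean and SD alike, so that this pass says little about the call.

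Rbp4, read by probe 17990, had log ratios of 1.14, 1.498 and 1.40 on arrays 1, 2 and 3. Here array 1 was the lowest, unlike in the other 3 genes, where array 3 was. The mean was 1.35 ± 0.18 (SD, n = 3), with a limma adjusted p of 8.49e-06, corresponding to 2.54-fold in base 2 or 3.85-fold in natural logs. On array 3, where both of its probes had a value, they read 1.40 and 0.86. With 0 kept as a value the mean over both probes was 0.82, and the test was passed narrowly (adjusted p = 0.0456).

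The order of the ratios was tight in its lower part. Apoh exceeded Ttr by 0.46 ± 0.090 (SD of the difference, n = 3 arrays), and the lowest value of Apoh, 2.13, lay above the highest of Ttr, 2.03. Ttr exceeded Apoc3 by 0.30 ± 0.096 (SD, n = 3), although the lowest value of Ttr, 1.73, and the highest of Apoc3, 1.71, nearly met. Apoc3 exceeded Rbp4 by 0.25 ± 0.27 (SD, n = 3), a difference smaller than its own spread. These differences are given as a description, with no test. The order of Apoc3 and its neighbours also turned with the processing: Rbp4 came before Apoc3 once the local median was subtracted (1.25 against 1.15), and Apoc3 before Ttr with 0 kept (1.60 against 0.95).

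Genes with the most similar ratios over the 3 arrays were mixed in kind. Likeness was taken as the Euclidean distance between the 3 log ratios of 2 genes, and the 12 genes named lay at distances of 0.034 to 0.20. The closest to Apoh were the brain proteoglycan Spock3 (mean log ratio 2.40), the fructosamine kinase Fn3k (2.30) and the intestinal resistin-like gene Retnlb (2.31). Next to Ttr lay the transcription factor Mef2c (1.84), the potassium channel subunit Kcnj8 (1.97) and the RNA sensor Ifih1 (1.82). Apoc3 had the creatine kinase Ckb (1.59), the Polycomb protein Cbx7 (1.65) and the lymphoid transcription factor Ikzf3 (1.58) beside it. Closest to Rbp4 were Smim8 (1.36), the adenylyl cyclase Adcy7 (1.32) and Ctss (1.35), a lysosomal protease of antigen-presenting cells. The arrays repeat 1 comparison, so this likeness is one of ratio size on 3 arrays only.

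RefSeq windows before the transcription start (GRCm38.p6) were matched for 2 of the 4 genes, Apoh and Rbp4, and are shown as sequence context. The arrays measured no binding there, and no link of these letters to the ratios was tested. The 250 bases before the start of Apoh lie on the plus strand at chr11:108395047-108395296, and those before the outer of 2 starts of Rbp4 on the minus strand at chr19:38125322-38125571. Capitals mark matches on either strand to any of the motifs searched, and each line runs 5′ to 3′ up to the base before the start.
Apoh: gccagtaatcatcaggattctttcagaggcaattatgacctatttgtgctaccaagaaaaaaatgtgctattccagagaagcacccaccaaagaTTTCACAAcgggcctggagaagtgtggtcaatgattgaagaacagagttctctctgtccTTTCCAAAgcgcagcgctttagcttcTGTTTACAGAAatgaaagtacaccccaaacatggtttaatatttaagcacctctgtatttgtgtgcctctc
Rbp4 outer start: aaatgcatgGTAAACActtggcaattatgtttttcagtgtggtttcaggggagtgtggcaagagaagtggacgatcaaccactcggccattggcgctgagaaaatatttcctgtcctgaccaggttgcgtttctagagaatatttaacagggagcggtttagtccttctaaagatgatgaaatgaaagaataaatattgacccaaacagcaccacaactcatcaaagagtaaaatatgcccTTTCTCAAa
Both windows shown held TGTTTAC, the letters of a forkhead motif, on the other strand in Rbp4, which 3.17% of the 32851 windows of this length in the table held. TGTTTAC was absent from the 250 bases before the inner start of Rbp4. In Apoh its last 4 bases overlap TTACAGAA, a match to TTNNGNAA, a loose C/EBP type motif, and the letters of the pair run together as TGTTTACAGAA. TTNNGNAA matched 3 times in the Apoh window, 1 time in that of the outer Rbp4 start and 2 times in the 250 bases before its inner start, and 36.8% of all windows held it. The inner start of Rbp4 has TATAAA, the letters bound by the general initiation machinery, 28 bases before it, in a stretch of 30 bases at chr19:38124822-38124851 on the minus strand, with that motif in capitals.
Rbp4 inner start: tccccccggagcTATAAAggaccgacggcc
TATAAA occurred in 12.4% of all windows. The HNF4 type letters TGACCTTTG and CAAAGTCCA and an HNF1 type motif were found in none of these 3 windows, and in 0.426%, 0.384% and 0.0609% of all windows. These are matches of letters, not measured sites.

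Other genes of the same pathways went in both directions. The 6 lists around the 4 genes named 189 other genes, 44 of which had a probe and 26 a value on all 3 arrays. Of these 26 genes, 12 were positive, 10 were negative and 4 did not pass, and their median log ratio was 0.034, against -0.033 for all genes tested. The shares over all genes were 33.2% positive and 37.1% negative.

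Apoe and Saa3 were the other apolipoproteins measured, and they lay at opposite ends. Apoe, the ligand for lipoprotein receptor uptake and also a product of macrophages, had log ratios of 3.90, 3.90 and 3.68 with probe 11932 and 3.88, 3.77 and 3.55 with probe 15397. Its gene mean was 3.78 ± 0.15 (SD, n = 3; limma adjusted p = 5.77e-08). Both probes of Apoe therefore lay above every value of the 4 plasma protein genes. Saa3, an acute phase serum amyloid protein made mainly outside the liver in the mouse, was negative at -2.12 ± 0.14 (SD, n = 3; limma adjusted p = 6.30e-07).

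Among other plasma proteins made by liver, 5 of 8 measured genes were positive and 2 negative, and the list had a median of 0.46. Of all genes tested, 33.2% were positive and 37.1% negative, with a median of -0.033. The complement subunit C8g did not pass at 0.040, and Ambp, the precursor of alpha-1-microglobulin, was positive at 0.37. Vtn, the adhesive plasma protein vitronectin, had a mean log ratio of 1.98 and Kng1, the precursor of bradykinin, 1.20. Coagulation factor XI, F11, had 0.65, and the protease inhibitor fetuin-B, Fetub, 0.55 as the mean of probes at 0.82 and 0.29. Vtn was the nearest in size to the 4 genes, between Apoh and Ttr, while its second probe had a value on array 3 only, -0.10. Negative ratios were found for ceruloplasmin, Cp, the copper-carrying ferroxidase (-1.18), and for Igfbp2, an insulin-like growth factor binding protein (-1.25). Alpha-fetoprotein, Afp, the fetal counterpart of albumin, had 3 probes at 0 on every array, and Itih4, Igfals and Ttpa were also at 0. With 0 kept as a value, Vtn (0.98), Cp (-0.59) and Igfbp2 (-0.69) were smaller in size, and all still passed the test. For Cp that pass says little, since its second probe, at 0 on every array, shrank mean and SD alike. With the local median subtracted, Fetub (0.34) and Ambp (0.22) were smaller too and still passed.

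Genes that receive or process what these carriers transport went in both directions. Of 5 lipoprotein receptor, lipase and assembly genes, 2 were positive and 2 negative, around a median of 0.028. That split was near the one over all genes, 33.2% positive and 37.1% negative. Abca1, the cholesterol exporter that loads apolipoprotein A-I, had a mean log ratio of 1.34, the endothelial lipase Lipg -1.16 and the receptor Lrp1 -0.36. Mttp, which loads lipid onto apolipoprotein B, had 0.26 and moved to -0.11 when the local median was subtracted (adjusted p = 0.0820). Without array 1 the log ratio of Mttp was 0.27 and that of Lrp1 -0.26, and neither passed (adjusted p = 0.0520 and 0.0594). Without array 3, in a fit that pooled the variance over all genes, Mttp had 0.21 (adjusted p = 0.113). With 0 kept, Lrp1 had -0.18 and did not pass (adjusted p = 0.105). Angptl4, an inhibitor of lipoprotein lipase, had 0.028 and did not pass.

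In the retinoid list, 3 of 4 measured genes were negative and 1 positive, with a median of -0.68. Over all genes, 37.1% were negative and 33.2% positive, and so few genes say little about a list. Rbp4, which delivers retinol, was positive. The retinoic acid receptors Rarg and Rara had mean log ratios of -1.45 and -0.85, the retinol dehydrogenase Rdh10 had -0.50, and the partner receptor Rxrb had 0.62 (0.33 with 0 kept). That lower mean includes a second probe of Rxrb, which had 0.15 on array 1, -0.034 on array 2 and 0 on array 3. Lrat, which esterifies retinol for storage, was at 0 on every array. In the thyroid hormone list, to be read beside the same shares over all genes, 2 of 3 measured genes were negative and 1 did not pass. They were Slc3a2 (-0.73, and -0.30 with the local median subtracted), the heavy chain of an amino acid transporter that also moves thyroid hormone, and Trip13 (-1.34), named for an interaction with the thyroid hormone receptor and known as a checkpoint ATPase, while Trip11 had -0.049 and did not pass.

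**Figure D3:**
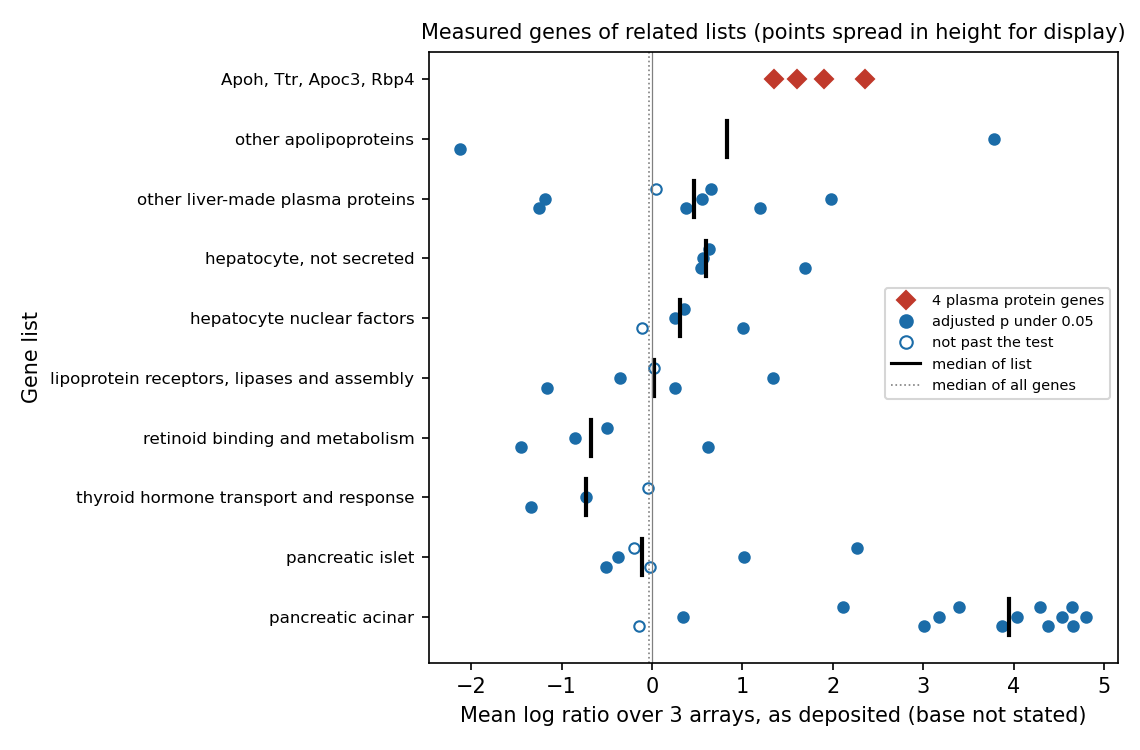
Mean log ratio over 3 arrays (horizontal axis, base not stated) of each measured gene, by list (vertical axis); red diamonds are Apoh, Ttr, Apoc3 and Rbp4, filled circles passed the test, open circles did not, and black bars are list medians. The 4 genes lie between 1.35 and 2.36, the retinoid list has its median at -0.68 and the pancreatic acinar list at 3.95.

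Markers of tissues that make these proteins were compared as lists of other cell types. Of 36 hepatocyte genes that are not secreted, 7 had a probe and 4 a value on all 3 arrays. All 4 were positive, with a median of 0.60 and a range of 0.54 to 1.69, where 33.2% of all genes were positive. Aadac, an arylacetamide deacetylase, had a mean log ratio of 1.69, the bile acid conjugating enzyme Baat 0.63, the fatty acid binding protein Fabp1 0.56 and the methyltransferase Gnmt 0.54. With the local median subtracted Gnmt had 0.20 and still passed (adjusted p = 0.0141). Baat, Fabp1 and Gnmt did not pass the test against 1.5-fold in base 2. Aadac alone reached the size of the 4 plasma protein genes, and the hepatocyte genes Cyp3a11 and Slco1b2 were at 0 on all 3 arrays. Tfr2 had 0.24 on array 1, 0.092 on array 2 and 0 on array 3 with probe 1646, and 0 on every array with probe 85. Of 26 listed nuclear factors of hepatocytes, a pathway list and not one of cell type markers, 6 had a probe and 4 were measured on all 3 arrays. Of these 4, 3 were positive, with Nr2f2 at 1.01, Nr0b2 at 0.36 and Nr2f1 at 0.25. Foxa3 did not pass at -0.12, and Nr1h4 and Nr1i2 were at 0 on every array. The list had a median of 0.31, and without array 1 Nr0b2 had 0.29 and Nr2f1 0.22, neither past the test (adjusted p = 0.0548 and 0.0741).

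Pancreatic acinar genes were higher still, with 13 of 14 measured genes positive, a median of 3.95 and a range of -0.14 to 4.80. Islet genes were divided, with 2 of 6 positive and 2 negative and a median of -0.11. For all genes tested the shares were 33.2% positive and 37.1% negative. Scg5, a secretory granule chaperone, had a mean log ratio of 2.27 and the insulin gene Ins2 1.02, whereas the glucagon gene Gcg had -0.38 and Neurod1 -0.51. Pdx1 and Chgb did not pass, at -0.20 and -0.018. In the choroid plexus list, Sostdc1 had 2.88 and Folr1 0.27, both positive, and Kcne2 did not pass at -0.20. Adipocyte markers had 2 members measured on all 3 arrays, Slc2a4 at 0.85 and Lipe at -0.29. Outside the test, Scd1 had 1.22 and 1.35 on arrays 1 and 3, and Gpd1 had 0.24 and 0.46 there. Both were at 0 on array 2, and Pparg and the other probe of Gpd1 were at 0 on every array. Lipe had -0.031 with the local median subtracted (adjusted p = 0.617) and -0.24 without array 1 (adjusted p = 0.0743), and passed in neither case. Without array 3, in a fit that pooled the variance over all genes, Folr1 kept its size at 0.25 but did not pass (adjusted p = 0.0533), and Kcne2 passed at -0.28 (adjusted p = 0.0269). Pdx1 passed without array 1 at -0.28 (adjusted p = 0.0443). For yolk sac and visceral endoderm, 3 of 7 measured genes were negative in limma's test and the other 4 did not pass. The list had a median of -0.12 and a range of -3.24 to 0.085. Its share of negative genes was close to the 37.1% over all genes. Without array 1, Lama1 passed too (-0.28, adjusted p = 0.0309). The 3 negative genes were Lamb1 (-3.24, and -1.08 with 0 kept), Dab2 (-1.73) and Gata6 (-0.62). The part of any of these cell types in the ratios of the 4 genes was not tested. In such bulk RNA, fewer cells of a type and less RNA per cell cannot be told apart.

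The calls of the 4 genes held under all 14 other settings tried, some of which could hardly change them. Each gene rests on 1 measured probe. The median of a gene's probes, and probes with values on at least 2 arrays, therefore left their means unchanged. A cutoff of 0.01 lay far above their adjusted p as reported. The settings also included a stricter limma test, of whether the change exceeded 1.5-fold in base 2. There adjusted p lay between 2.87e-06 for Apoh and 0.000212 for Rbp4. In limma's fit without moderation of the variance, adjusted p lay between 0.0140 for Apoc3 and 0.0246 for Rbp4. Leaving out 1 array at a time moved the mean of Apoh between 2.29 and 2.47, that of Ttr between 1.84 and 1.99, that of Apoc3 between 1.55 and 1.63 and that of Rbp4 between 1.27 and 1.45.

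**Figure D4:**
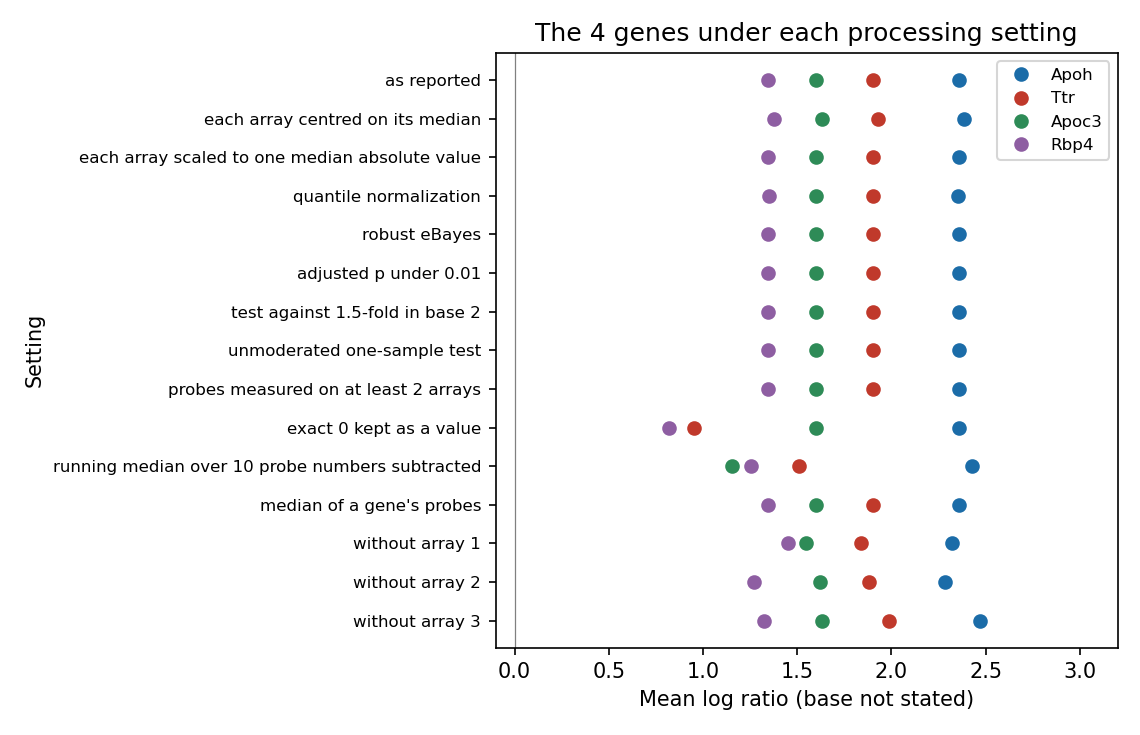
Mean log ratio (horizontal axis, base not stated) of Apoh, Ttr, Apoc3 and Rbp4 as reported and under 14 other settings (vertical axis). Apoh stays between 2.29 and 2.47, while Ttr and Rbp4 drop to 0.95 and 0.82 with exact 0 kept as a value and Apoc3 to 1.15 with the local median subtracted.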

How the data were processed

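The deposited score values, 1 signed log ratio per probe on each of 3 two-colour arrays and 16273 probes in all, were made by the authors in steps of which base, numerator, centring and scale are unknown. For array type, image processing and normalization, the steps are not stated in the labels. Ratios were tested as deposited. Exact 0 was read as no measurement. Gene names came from the platform annotation, in which 12336 probes have 1 symbol, 61 have several and 3876 are unnamed here. Probes with 1 symbol and values on all 3 arrays were averaged per gene. The test was limma's (version 3.58.1, R 4.3.3), of each mean ratio against 0 (intercept fit, moderated variance, two-sided, Benjamini-Hochberg over 6077 genes or 11086 probes), after the fit was tested on simulated data. For the 4 genes, the adjusted p over probes lay between 1.44e-06 and 1.64e-05. The members, the 6 pathway and 10 marker lists and the tests were chosen with earlier results of these data known. Named genes were the 4 members with every probe, the largest absolute means of each list (up to 6), and the 3 genes nearest to each member, passing over clone and predicted names. Ambp and C8g, list genes at 0 or with fewer values, and second probes fall outside that rule and were named after their values were seen. Of the B cell, T cell, macrophage, erythroid, acinar and yolk sac lists the text gives the counts and, where a count turns on them, single genes. Plots were made in Python 3.11.15 with matplotlib 3.10.9.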

Additional observations from a re-analysis of the deposited data

How the results depend on the processing

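Under 11 other ways of processing, some of which could not change their values, and with each of 3 arrays left out, the 4 genes kept a positive, called ratio. Their 4 fully measured probes were called in each of the 13 settings that could change a probe; with 0 kept, the second probes of Ttr and Rbp4 were tested too and were not called. With array 3 left out, limma pooled the variance over all genes, so the p-values of that fit are not comparable with the others. Keeping 0 lowered Ttr to 0.95 by construction, since its second probe, at 0 on every array, entered the mean. The SD of Ttr shrank in the same measure, so that its call there is no separate check. Rbp4 fell to 0.82, where its second probe entered with 0 on arrays 1 and 2 and a measured 0.86 on array 3. Among the 26 genes of the 6 pathway lists, 12 positive and 10 negative calls became 5 and 7 in the test against 1.5-fold in base 2, which is stricter by construction. With 1 array left out they ranged from 9 to 12 positive and from 9 to 10 negative. Mttp turned to -0.11 with the running median subtracted, and the cause was not tested. Of 74 list genes examined, 22 changed their call in at least 1 setting, 18 of them in the test against 1.5-fold. That test ended the calls of F11, Fetub, Ambp, Baat, Fabp1, Gnmt, Rdh10, Rxrb, Slc3a2, Lrp1, Mttp, Nr0b2, Nr2f1, Gata6, Gcg, Neurod1, Folr1 and Lipe. Without moderation those of Fetub, Gcg, Ins2, Lipe, Lrp1, Mttp, Neurod1, Nr0b2, Nr2f1 and Rdh10 ended, and with 0 kept those of Lipe, Lrp1, Mttp and Nr0b2. Without moderation of the variance 2770 genes were called in all, with 0 kept 3263 of 7984, and against 1.5-fold 1208, against 4270 as reported. Centring the arrays moved the split of all gene calls to 2130 positive and 2145 negative, against 2017 and 2253. No paired analysis was possible because the arrays form 1 group.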

Other observations

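Some related genes had a value on 2 of the 3 arrays and entered no test. They are named here after their values were seen. Fgb, the fibrinogen beta chain made by hepatocytes, had log ratios of 3.08 on array 1 and 2.79 on array 2 with probe 2728, above every value of Apoh, while 0 was deposited for it on array 3 and for its other probe, 15066, on all arrays. Sorl1, a sorting receptor of the lipoprotein receptor family, had 4.55 on array 1 and 4.46 on array 3. Lpl, the lipase that ApoC-III inhibits, had 0.48 and 0.52 on arrays 1 and 3 with probe 12887 and 0 on every array with probe 17663. Serpinf1, a plasma serpin, had -0.92 and -0.70 on arrays 1 and 2. Serpina1d, a member of the alpha-1-antitrypsin family, had 0.14 on array 1 and -0.060 on array 3, values of opposite sign.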
